A study of Mus musculus with 8 samples.

Results

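The 9 genes described here encode proteins that license DNA for replication or act next at the fork, namely Mcm2, Mcm3, Mcm4, Mcm5, Mcm6, Mcm7, Cdc6, Cdt1 and Pcna. They were taken by name from 10690 mouse genes that are listed in at least 1 of 3 deposited gene tables, and 9 of 9 were found in all 3 tables. The libraries were made with QuantSeq FWD, which counts reads near the 3′ end of mRNAs and whose reads were assigned to polyadenylation sites (PASs) by the program MAAPER. Total RNA came from NIH3T3 cells, an established line of mouse fibroblasts kept in medium with 10% calf serum. NT cells were not treated, AS cells were exposed to 250 μM sodium arsenite for 1 h, and RC4 and RC8 cells were then returned to medium without arsenite for 4 h and 8 h, respectively. No group carries a genetic change. Each condition has 1 library, so there was no replicate, no test was made, and the 95% intervals given here cover the counting of reads only and not the spread between cultures. Depth on listed genes was 22.4 to 23.0 M reads per library, and the lowest count of a listed gene was 50 reads. AS, RC4 and RC8 were each compared with the same NT library, so these comparisons are not independent.

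Licensing takes place in G1, when the origin recognition complex with Cdc6 and Cdt1 places the ring-shaped Mcm2 to Mcm7 complex on DNA in an inactive form. In S phase, kinases, Cdc45 and GINS turn the ring into the active helicase, while Cdc6 and Cdt1 are removed or blocked so that no origin is licensed again. Pcna is the sliding clamp that tethers DNA polymerases at the fork, and it also serves as the platform on which Cdt1 is marked for degradation. Transcription of these genes is known to be driven by E2F factors as cells enter the cycle. NIH3T3 is a cycling fibroblast line, in which such genes are widely used as proliferation markers.

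Letters of E2F type were looked up in the promoters of the members, since the members' mRNAs are the subject of the comparisons that follow. Promoters of 300 nt, from 250 nt before to 50 nt after the gene start, were those of RefSeq for GRCm38.p6 and were available for 8 of the 9 genes, all except Mcm4. The searched letters were TTTCCCGC, TTTGGCGC, TTTCGCGC and TTTGCCGC on both strands, and hits on opposite strands can overlap. At least 1 of them was found in 6 of the 8 genes, compared with 744 of 32851 promoters, or 2.26%, and with 2.60% of 27025 genes. With the first letter left out, the same number of members, 6 of 8, held a hit, against 10.9% of genes. The 6 genes were Cdc6, Cdt1, Mcm3, Mcm5, Mcm6 and Mcm7, while Mcm2 and Pcna had no match in this window. A stretch of 30 nt around 1 hit per gene is shown from 5′ to 3′ on the strand of the gene, with the matched letters in capitals. Those of Cdc6, Mcm3 and Mcm7 read GCGGGAAA, which is TTTCCCGC on the opposite strand. A match of letters does not show that a factor binds.
Cdc6, chr11:98908002-98908031, plus strand: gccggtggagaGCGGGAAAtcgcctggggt
Cdt1, chr8:122568035-122568064, plus strand: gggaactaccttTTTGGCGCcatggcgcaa
Mcm3, chr1:20820275-20820304, minus strand: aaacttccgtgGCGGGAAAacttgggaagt
Mcm5, chr8:75109345-75109374, plus strand: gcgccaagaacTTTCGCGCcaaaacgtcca
Mcm6, chr1:128359797-128359826, minus strand: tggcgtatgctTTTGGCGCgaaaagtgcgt
Mcm7, chr5:138172030-138172059, minus strand: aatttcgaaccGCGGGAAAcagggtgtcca

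The labels were checked with genes known to be induced by arsenite, of which 7 of 10 were listed. At least 1.5-fold higher were 6 in AS (1.88% of all genes), 6 in RC4 (8.04%) and 4 in RC8 (11.3%). Gclm stayed near NT, with log2 changes of 0.16 in AS, −0.03 in RC4 and 0.06 in RC8. Egr1 was below NT in RC8, at −0.29. Hmox1, which encodes the heme-degrading enzyme heme oxygenase, had 27.6 RPM (reads per 1000000 reads of the table) in NT and 57.8 in AS, then 888 in RC4 and 101 in RC8. All 9 fibroblast markers looked for were listed, and none of 10 markers of leukocytes, epithelium, endothelium, stem cells or muscle was, which for a listed gene would take 50 reads. The fibroblast markers summed to 14578 RPM in NT and 15163 in AS, then 11614 in RC4 and 8756 in RC8, and 4 of 9 were at least 1.5-fold lower in RC4 (31.8% of all genes) and 6 of 9 in RC8 (11.9%). Their median log2 change was −0.58 in RC4 and −0.86 in RC8, beside −0.30 and 0.01 for all genes. The part of this in the values of the replication genes was not tested.

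The largest difference among the members was that of Cdc6, the ATPase that joins the origin recognition complex and recruits Cdt1 with the MCM ring. Cdc6 (mm9 chr11:98769115-98785254) had 1275 reads in NT and 1619 in AS, then 353 in RC4 and 1769 in RC8. Scaled to the total of the table these were 56.5, 72.1, 15.4 and 76.9 RPM. The library of RC4 was thus far below the other 3, with a counting interval of 13.9 to 17.1 RPM. Its log2 change from NT was −1.88 (−2.05 to −1.70), or 3.67-fold lower, which placed it at rank 156 from the lowest of 10081 genes. In AS it was 0.35 higher (0.25 to 0.46) and in RC8 0.45 higher (0.34 to 0.55) on the log2 scale. Between RC4 and RC8 the level of Cdc6 differed 4.99-fold. In bulk RNA, fewer cells that express such a gene and less RNA per cell cannot be told apart.

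The higher Cdc6 levels of AS and RC8 depended on how NT was counted. Each library has 2 count columns, and for Cdc6 in NT they held 579 and 696 reads, a gap reached by 0.067% of genes. With the first column alone, Cdc6 in RC8 was 0.60 above NT on the log2 scale, which passes 1.5-fold, and with the second column alone it was 0.30. In AS the corresponding values were 0.49 and 0.23. In RC4 both columns gave nearly equal values, −1.87 and −1.88.

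Cdt1, the partner of Cdc6 in loading the ring, had 3297 reads in NT and 3641 in AS, then 2656 in RC4 and 3926 in RC8. These correspond to 146, 162, 116 and 171 RPM, so that RC4 was lowest, followed by NT, AS and RC8. Only the intervals of AS (157 to 168) and RC8 (165 to 176) overlapped. The gene (mm9 chr8:125091915-125097028) changed by −0.33 in RC4 (−0.41 to −0.26), close to the median of all genes in that library, and by 0.15 in AS and 0.23 in RC8. Scaled to the total, Cdt1, like Cdc6, was farthest from NT in RC4, but by a much smaller change. No Cdt1 value passed 1.5-fold.

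**Figure D1:**
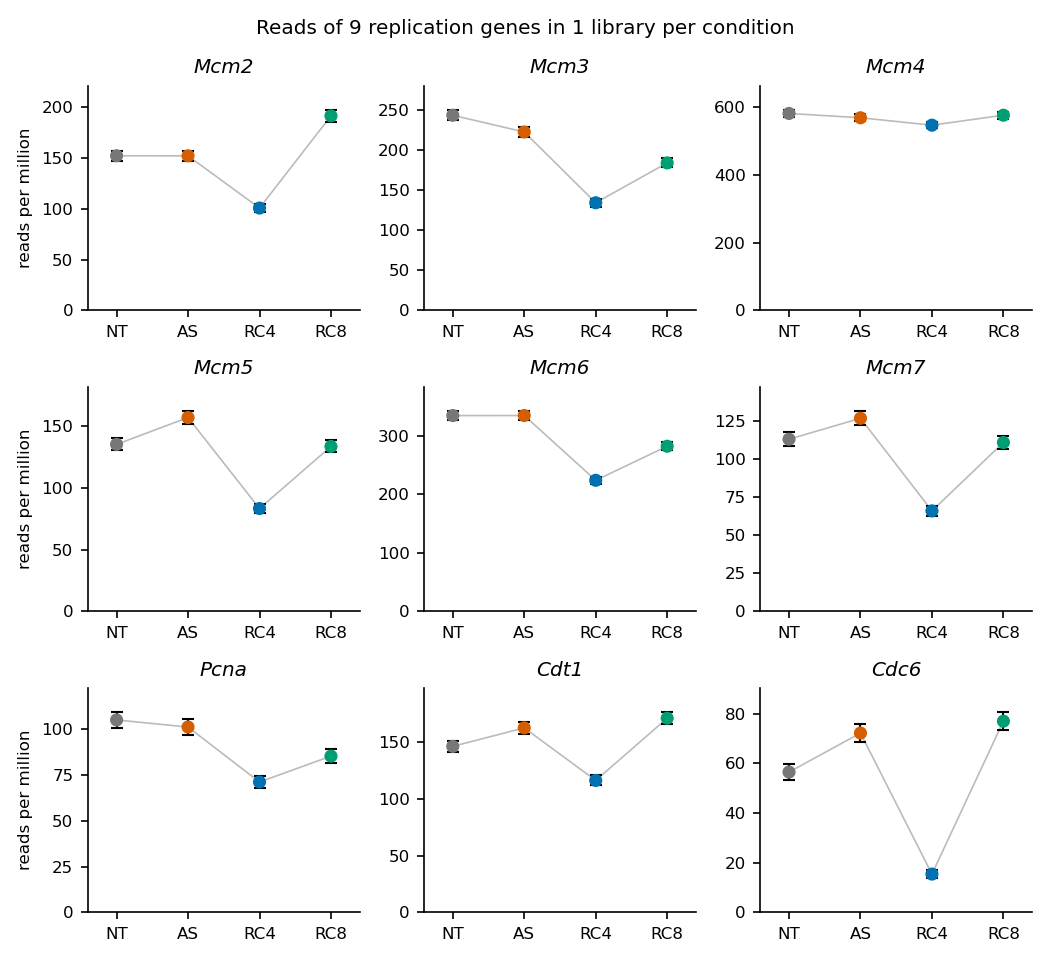
RPM (vertical axes, each from 0) of the 9 genes in the NT, AS, RC4 and RC8 libraries. Points are single libraries, bars are 95% exact Poisson intervals for the counting of reads, and lines only join points. RC4 is the lowest point in each panel, least clearly in Mcm4 (546 RPM against 580 in NT, and above NT relative to the median gene) and most clearly in Cdc6 (15.4 against 56.5).

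The 6 subunits of the MCM ring had summed levels of 1559 RPM in NT and 1561 in AS, then 1154 in RC4 and 1477 in RC8. After 1 h of arsenite the sum was therefore almost that of NT, and at 4 h of recovery it was lower. The subunits did not contribute alike to this difference.

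Mcm4, Mcm6 and Mcm7 form the core in which helicase activity was first found. Mcm4 (mm9 chr16:15623990-15637493) had 13103 reads in NT and 12734 in AS, then 12491 in RC4 and 13223 in RC8, or 580, 567, 546 and 575 RPM. These were nearly level across the 4 libraries, with a change of −0.09 in RC4 (−0.13 to −0.06) that turned to 0.21 relative to the median gene. Mcm6 (mm9 chr1:130228168-130256233) had 334 RPM in both NT and AS, then 224 in RC4 and 282 in RC8, and its change in RC4 was −0.58 (−0.63 to −0.53). Mcm7 (mm9 chr5:138605811-138613650) had 2550 reads in NT and 2842 in AS, then 1509 in RC4 and 2547 in RC8, or 113, 127, 65.9 and 111 RPM. Here RC4 was lowest by −0.78 (−0.87 to −0.69), AS was highest, and the intervals of NT and RC8 overlapped. Within the same core, Mcm7 and Mcm4 thus differed by far more than counting error in RC4.

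Mcm2, Mcm3 and Mcm5 are the remaining subunits, and the interface of Mcm2 with Mcm5 is the gate through which DNA enters the ring. Mcm2 (mm9 chr6:88833469-88848774) had 152 RPM in NT and 152 in AS, then 101 in RC4 and 192 in RC8. It was the only subunit with a level in RC8 above that of NT beyond counting error, by 0.33 on the log2 scale (0.27 to 0.40), after −0.60 in RC4 (−0.68 to −0.52). Mcm5 (mm9 chr8:77633427-77652338) had 135 RPM in NT and 157 in AS, then 83.4 in RC4 and 134 in RC8. Its intervals in NT and RC8 overlapped, and its change in RC4 was −0.70 (−0.78 to −0.62). Mcm3 (mm9 chr1:20793055-20810359) had 244 RPM in NT and 223 in AS, then 135 in RC4 and 184 in RC8. Mcm3 had the lowest value of the 6 subunits in RC4, −0.86 (−0.93 to −0.80), and also in RC8, −0.40 (−0.46 to −0.35).

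The reads of the ring were thus divided differently in RC4. Mcm4 took 37.2% of the reads of the 6 genes in NT (Wilson interval 36.7 to 37.7) and 36.4% in AS, but 47.3% in RC4 (46.7 to 47.9), and 38.9% in RC8. The share of Mcm3 was 15.6%, 14.3%, 11.7% and 12.5% in the same order. The share of Mcm7 was 7.24%, 8.11%, 5.71% and 7.50%. Mcm2 had its highest share, 13.0%, in RC8, against 9.76% in NT. Such shares compare libraries for 1 gene and are not levels of protein subunits.

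**Figure D2:**
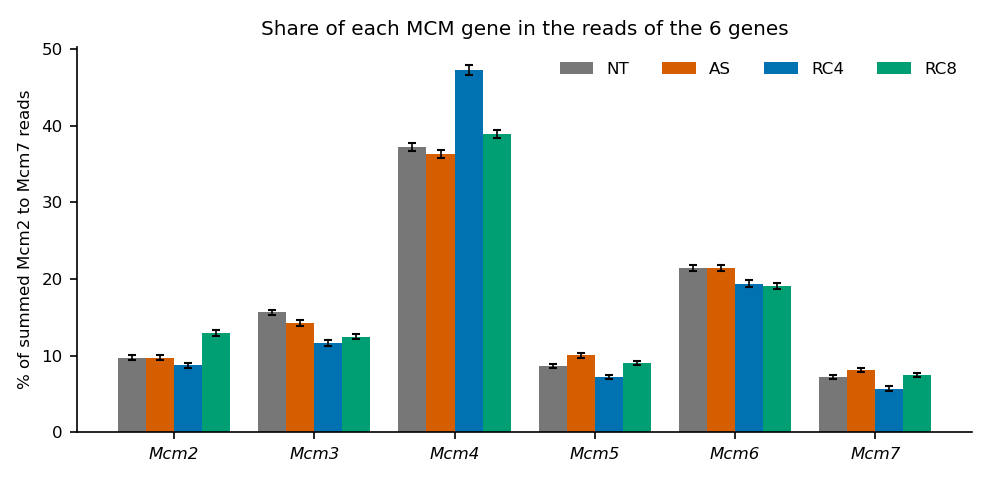
Share of each MCM gene in the summed reads of Mcm2 to Mcm7 (vertical axis, in percent) for the NT, AS, RC4 and RC8 libraries, with 95% Wilson intervals for counting. The RC4 bar of Mcm4 reaches 47.3% against 37.2% in NT, while the RC4 bars of the other 5 genes are below their NT bars.

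Pcna, the clamp, had 2372 reads in NT and 2270 in AS, then 1629 in RC4 and 1961 in RC8, or 105, 101, 71.2 and 85.3 RPM. RC4 was lowest and RC8 next, with log2 changes of −0.57 (−0.66 to −0.47) and −0.30 (−0.39 to −0.21), whereas NT and AS overlapped. The gene (mm9 chr2:132074898-132079050) is uncertain because the pseudogene Pcna-ps2 on chromosome 19 was listed with more reads than Pcna itself, namely 3265 in NT and 2968 in AS, then 1806 in RC4 and 2172 in RC8. Over the 250 bases before the PAS of each, 234 bases or 93.6% were identical, so reads may be split between them or counted for both. The alignment had only 1 mismatch, and the rest of the difference was 30 gap positions over both sequences. With the reads of both added, a setting chosen after seeing the data, the changes were −0.10 in AS, then −0.74 in RC4 and −0.47 in RC8. Pcna then passed 1.5-fold in RC4, which it did not alone. A read counted for both genes would enter this sum repeatedly.

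Counted together, 0 of 9 members were at least 1.5-fold higher or lower in AS, where 11.4% of 10452 genes were lower and 1.88% higher. In RC4, 5 of 9 were lower and 0 higher, against 31.8% and 8.04% of 10081 genes. The 5 were Cdc6, Mcm2, Mcm3, Mcm5 and Mcm7, with Mcm2 just past the limit at 1.51-fold and Mcm6 and Pcna just short of it at 1.497-fold and 1.48-fold. Scaled to the library totals of the study, Mcm6 at −0.61 and Pcna at −0.59 passed as well, which makes 7 of 9. The share of all genes was not computed on that scale. In RC8, 0 of 9 passed in either direction, against 11.9% lower and 11.3% higher among 10441 genes. The median over the members was 0.00 in AS, then −0.60 in RC4 and −0.02 in RC8, beside medians of all genes of −0.04, −0.30 and 0.01. Set against AS instead of NT, 5 of 9 members were lower in RC4 (26.6% of genes) and 0 higher (12.5%). From RC4 to RC8, 4 of 9 were higher (30.6%) and 0 lower (6.59%), namely Cdc6, Mcm2, Mcm5 and Mcm7.

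All genes of RC4 lay lower at the median, by −0.30 on the log2 scale. Relative to the median gene, 1 of 9 members, Cdc6 at 2.97-fold, was at least 1.5-fold lower in RC4, beside 17.4% of all genes, and 0 were higher, beside 15% of all genes. On this scale Mcm3 was at −0.56, Mcm7 at −0.48, Mcm5 at −0.40 and Mcm2 at −0.29, all within 1.5-fold. Mcm4 changed sign, to 0.21 above NT, and Cdt1 was at −0.03. In AS, 0 of 9 members passed 1.5-fold on this scale (10.2% of genes lower and 2.07% higher), and in RC8 likewise 0 of 9 (12.1% lower and 11.1% higher).

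**Figure D3:**
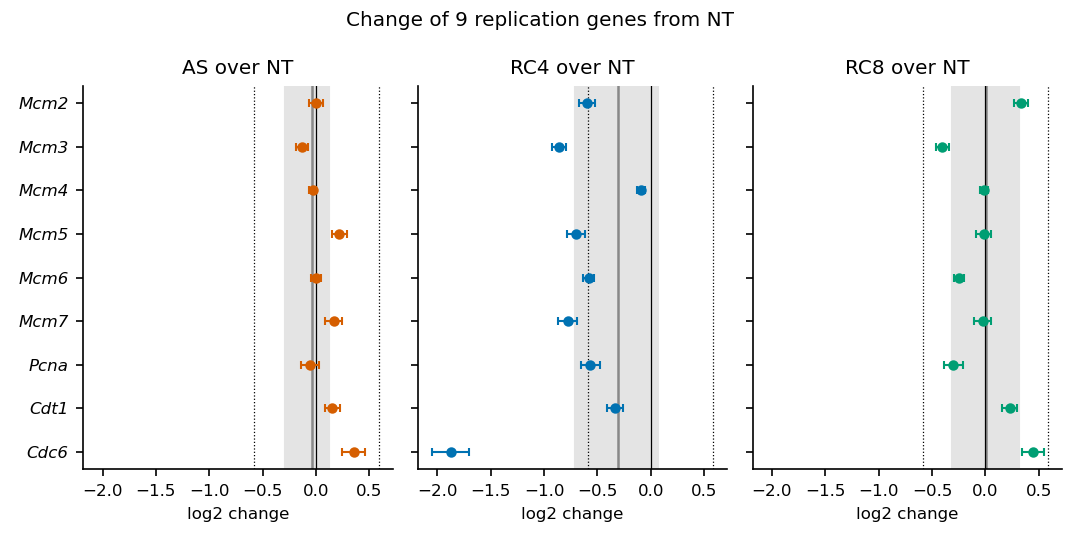
Log2 change (horizontal axes) of the 9 genes in AS, RC4 and RC8 over NT, with 95% counting intervals from the exact binomial interval. The grey band spans the lower to upper quartile of all genes and the grey line is their median, the thin line is 0, and dotted lines mark 1.5-fold. In RC4 all 9 points lie below 0, though Mcm4 is above the median gene, and Cdc6, at −1.88, is far to the left of the band.

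Around the members, 78 other genes of DNA replication and its control were listed by role, with earlier results of these data known, of which 74 were in at least 1 table and Mcm8, Rpa3, E2f2 and E2f6 were not. In RC4, 51 of 72 were at least 1.5-fold lower, beside 31.8% of all genes, and 3 were higher, beside 8.04%. Their median was −0.94, against −0.60 for the members and −0.30 for all genes. Relative to the median gene 39 were lower, beside 17.4% of all genes, and 6 higher, beside 15%. In AS, 6 of 74 were lower and 2 higher with a median of −0.01, not above the 11.4% lower and near the 1.88% higher among all genes. In RC8, 14 of 74 were lower (11.9% of all genes) and 4 higher (11.3%), with a median of −0.16. The same NT library enters all of these values.

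The genes that work directly with the members came first. Of origin recognition and licensing, 8 of 10 were at least 1.5-fold lower in RC4 (31.8% of all genes, as for each group that follows), including Gmnn, the inhibitor of Cdt1, at −1.49 and Orc1, the subunit that binds ATP next to Cdc6, at −0.90. Orc4 was an exception at 0.16. Of the genes that remove or mark Cdt1 and Cdc6, 4 of 6 were lower in RC4, beside the same 31.8%. Fzr1, which activates the ubiquitin ligase that targets Cdc6 in G1, was at −2.39, and Dtl, which recognizes Cdt1 on Pcna, was at −1.44. The mRNA of Cdt1 itself, at −0.33, was less low than that of its inhibitor Gmnn or of Dtl.

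Genes that act after licensing came next. For origin firing, 9 of 14 were at least 1.5-fold lower in RC4, led by Cdc7, the kinase that phosphorylates the ring, at −2.35, and Timeless, a fork protection protein, at −2.30. Cdc45, part of the active helicase, was at −0.64 and Dbf4, the activator of Cdc7, at −0.57. For polymerases, the clamp loader and other fork proteins, 16 of 23 were lower and 2 higher, among them Fen1, the flap nuclease, at −1.89 and Rfc1, the large subunit of the loader of Pcna, at −1.44. Pole, the catalytic subunit of polymerase epsilon, was above NT in all 3 conditions, at 0.69 in AS, then 1.39 in RC4 and 0.44 in RC8. For nucleotide supply, 5 of 6 were lower, with thymidine kinase Tk1 at −1.97 in RC4 and −1.56 in RC8.

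Of the genes that control G1 and S phase, 9 of 13 were lower in RC4 (31.8% of all genes) and 1 higher (8.04%). The lowest of all 72 was Ccne1, encoding cyclin E1, at −2.72, and Ccna2, encoding cyclin A2, was at −2.24. E2f1, an activator of the E2F family, was at −0.78. The 1 higher gene was Cdkn1a, which encodes the cyclin-dependent kinase inhibitor p21, at 1.36, and it was also the highest of the 74 in RC8 at 0.79. In AS the lowest were Topbp1 at −1.42, Clspn at −0.85 and E2f3 at −0.85 among genes with at least 200 reads. The lowest of such genes in RC8 were Tk1 at −1.56, Topbp1 at −1.08 and Prim1 at −0.92. Highest in AS, also among genes with at least 200 reads, were Pole at 0.69, Pold1 at 0.38 and Cdc45 at 0.36. In RC4 the highest of such genes were Pole at 1.39, Cdkn1a at 1.36 and Rb1 at 0.54. In RC8 the highest of such genes were Cdkn1a at 0.79, E2f7 at 0.63 and Pole at 0.44. E2f8 and Ticrr were listed in AS and RC8 but not in RC4, where the rule of 50 reads applies, so that the counts of RC4 leave out genes that may be very low there.

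**Figure D4:**
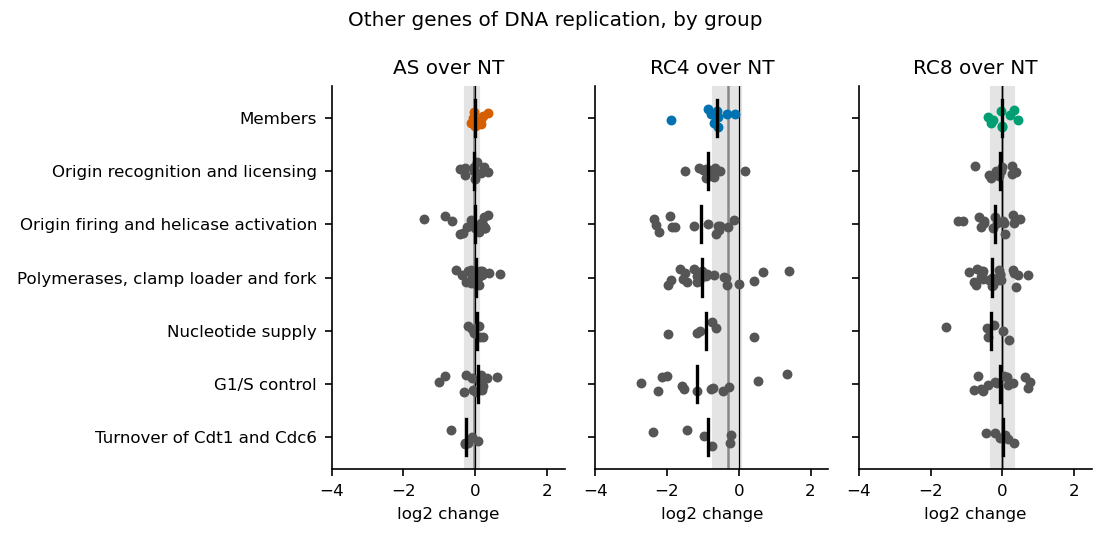
Log2 change (horizontal axes) of the 9 members (coloured) and of the other replication genes (dark grey) in AS, RC4 and RC8 over NT. Each point is 1 gene with vertical scatter for visibility only, black bars are medians of a group, and the grey band and line are the quartiles and the median of all genes. In RC4 the median of the members, −0.60, and those of the other groups, from −0.86 to −1.16, lie to the left of the line at −0.30.

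Most members end at 1 site. By the lists of PASs, 6 of 9 members had a single PAS in AS and 7 of 9 in RC4 and RC8, compared with 49.4%, 47.0% and 48.7% of all genes. The exceptions were Cdc6 with 3 PASs, Mcm2 with 2, and Mcm7 with 2 in the table of AS only. All of these were listed for the 3′-most exon. A change of at least 10 percentage points at a PAS can be seen only in genes with several PASs. It was found in 0 of 3 such members in AS (15.3% of all genes of this kind), 1 of 2 in RC4 (29.1%) and 0 of 2 in RC8 (27%).

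The 1 gene was Cdc6. Its middle PAS, 340 nt past the first, held 76.7% of its reads in NT and 80.3% in AS, then 86.9% in RC4 and 77.7% in RC8. The most distal PAS, 2386 nt past the first, held 15.1%, 11.9%, 5.67% and 14.5%, and RC4 was again the library that stood apart. In RC4 that distal share rests on about 20 reads (Wilson interval 3.70% to 8.59%, against 13.3% to 17.2% in NT). The first PAS varied little, from 7.46% to 8.21%. The mean end of the Cdc6 3′UTR thus lay 621 nt past the first PAS in NT and 557 in AS, then 431 in RC4 and 610 in RC8. Expressed as RPM, the distal site had 8.55 in NT and 0.87 in RC4, and the middle site 43.3 and 13.4.

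Mcm2 differed in AS and RC8 instead. Its distal PAS, 155 nt past the proximal one, held 7.89% of reads in NT (7.03 to 8.83) and 3.36% in AS (2.81 to 4.03), then 7.83% in RC4 and 2.65% in RC8 (2.22 to 3.17). The intervals of NT and RC4 overlapped, as did those of AS and RC8, and the 2 pairs were apart. These intervals treat estimated fractions as counted reads. The error of assigning reads to sites 155 nt apart is not in them, so whether the pairs differ beyond it was not tested. In RPM the distal site had 12.0 in NT and 5.12 in AS, then 7.91 in RC4 and 5.09 in RC8. For Mcm7 in AS, the 2 sites held 75.6% and 24.4% in NT and 76.9% and 23.1% in AS, with overlapping intervals. In the comparisons of RC4 and RC8 with NT, the downstream site held 100% of the reads of the same NT library. The NT share of the upstream site thus depended on the comparison in which it was estimated, which the intervals do not cover.

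**Figure D5:**
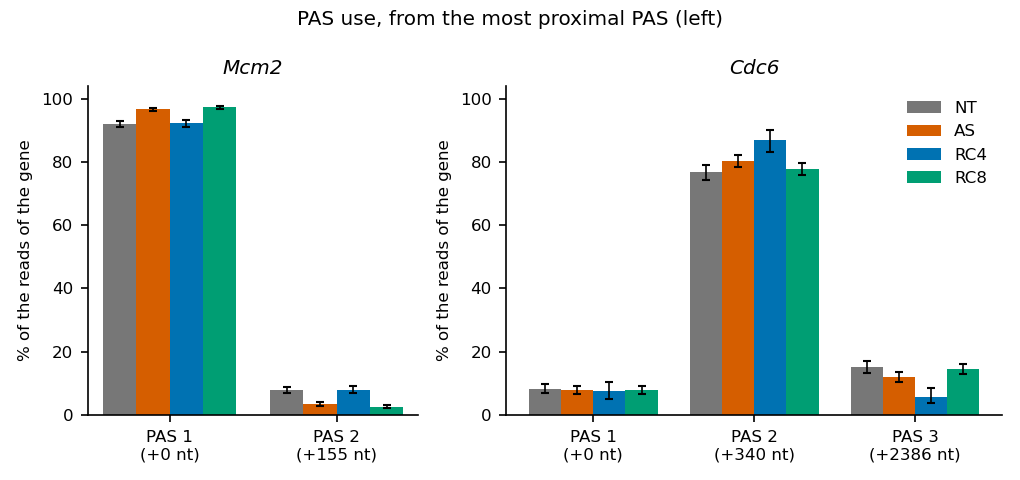
Share of the reads of Mcm2 and Cdc6 (vertical axes, in percent) at each PAS in NT, AS, RC4 and RC8, with 95% Wilson intervals. The intervals leave out the error of assigning reads to PASs. PASs run from proximal to distal and their distance from the most proximal is given under each group of bars. The distal PAS of Cdc6 is lowest in RC4 (5.67%), and that of Mcm2 is lowest in RC8 (2.65%) and AS (3.36%).

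The sites of the genes with several PASs are shown by the 30 nt that end at the listed position, from 5′ to 3′ in mm9, with the poly(A) signal AATAAA in capitals where present. This or ATTAAA was found within 40 nt before 7 of the 13 PASs of the members, or 53.8%, compared with 53.0% of 18174 PASs of 3′-most exons, and all 7 were AATAAA. The most used PAS of Cdc6 and both PASs of Mcm2 had neither form, while the outer PASs of Cdc6 both had AATAAA. The more upstream PAS of Mcm7 lies in the coding sequence, 14 nt before the last base of the stop codon, and the signal of the other one ends at the listed position itself. The other single PASs lay in the 3′UTR or up to 8 nt past the annotated end of the gene.
Cdc6 first, chr11:98782841-98782870, plus strand: gtaagAATAAAaacagtggccctttttaaa
Cdc6 middle, chr11:98783181-98783210, plus strand: ttgtgaatatatttattttcaagtttcgtt
Cdc6 last, chr11:98785227-98785256, plus strand: cAATAAAgttggtatgaattccaaccccaa
Mcm2 proximal, chr6:88833522-88833551, minus strand: cctagccagtgccttcatttgcttgttgta
Mcm2 distal, chr6:88833367-88833396, minus strand: cagtttcaaaatgaagtaggtctggttaga
Mcm7 upstream, chr5:138605961-138605990, minus strand: tctggcaggttaatacttctcggacacgga
Mcm7 downstream, chr5:138605842-138605871, minus strand: catgctgcacttttttattctgccAATAAA

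Genes outside the replication lists had changes close to the median of the members. Among 7814 genes with at least 200 reads in every library, the smallest distance over the 3 log2 changes was that of Tbccd1, at 0.03 in AS, then −0.58 in RC4 and −0.04 in RC8. Nop16, Mrps17, Lsm3 and Derl2 followed, with changes of −0.54 to −0.63 in RC4. The members themselves were farther from their median, from rank 321 for Mcm6 to rank 7008 for Cdc6. The median thus describes few of the 9 genes well, and 4 libraries with a shared NT give a likeness of values only.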

How the data were processed

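The data are 4 QuantSeq FWD libraries of NIH3T3 cells, 1 per condition. Per the labels and methods, the authors trimmed reads with bbmap, mapped them with STAR 2.5.2a to mm9 and assigned them by MAAPER to known PASs of PolyA_DB, using genes with at least 50 reads and a PAS threshold of 5%. The deposited gene tables hold raw read counts in 2 columns for each of 2 conditions. What the 2 columns are is not given in the sources used here, and they were summed as parts of 1 library, since the labels give 1 FWD library per condition. The first condition was taken as NT after the numbering of conditions in the methods, and its counts were equal in all 3 tables for 6 of 9 members and differed by at most 10 reads for the other 3. The direction of every change rests on this reading. The PAS tables, also deposited by them, give for each PAS its fraction of the reads of a gene. The authors' comparison columns (P values of 2 tests, and the RLD and RED length and expression scores) were not used. Libraries of QuantSeq REV, 4 in number, were not analysed here.

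RPM were computed over all genes of a table, which hold 79.5% to 82.3% of the mapped reads that the study lists, at 22.4 to 23.0 M reads per library. NT values are given from the table of AS, and those in the other tables lay within the counting interval. Intervals are 95% exact Poisson (RPM), exact binomial (log2 change) and Wilson (shares), from Python 3.11.15 and scipy 1.17.1, and cover the counting of reads only. Reads that are copies of 1 molecule were not told apart here and would make the intervals too narrow. For PAS shares the intervals treat the estimated fractions as counted reads, so the error of assigning reads to PASs is left out. The change and interval were run on simulated Poisson reads, which have the spread that the intervals assume. This checks the calculation only and cannot show whether real libraries vary more. Genes were called at 1.5-fold, and PASs at 10 percentage points. Named genes were the 9 members, the 3 highest and 3 lowest of the other replication genes per comparison with at least 200 reads in both libraries, the 5 of most similar pattern, and listed genes named with their group. The members and lists were chosen with earlier results of these data known. PAS sequences were read from NCBIM37 (mm9) with GENCODE vM1, and promoters came from RefSeq for GRCm38.p6. No coordinates were compared between these builds.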

Additional observations from a re-analysis of the deposited data

Results flagged for a closer look

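In 5 members the change from NT had opposite signs in RC4 and in another condition, beyond counting error. The difference between the conditions was not tested, because each has 1 library, and all changes share NT. Cdc6 was at 0.35 in AS, −1.88 in RC4 and 0.45 in RC8 on the log2 scale. Cdt1 was at 0.15, −0.33 and 0.23 in the same order. Mcm2 was at −0.60 in RC4 and 0.33 in RC8. Mcm5 was at 0.21 in AS and −0.70 in RC4, and Mcm7 at 0.17 and −0.78. Relative to the median gene, Cdt1 in RC4 was at −0.03, where an opposite sign has no weight, and the other 4 stayed below 0 in RC4, at −0.29 or lower.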

How the results depend on the processing

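No paired analysis was possible because each condition has 1 library, and for the same reason no library could be left out. With median-of-ratios scaling, the members at least 1.5-fold lower in RC4 were 1 in place of 5, their median was −0.29 in place of −0.60, and the higher replication genes were 6 in place of 3. This follows from the lower median of all genes in RC4. At 2-fold, 1 member was lower in RC4, and the replication genes were 2 lower and 0 higher in AS, 33 lower in RC4, and 3 lower and 0 higher in RC8. With at least 200 reads in both libraries, 1 replication gene was higher in AS and 2 in RC8. With count column 1 alone, 1 member, Cdc6, was at least 1.5-fold higher in RC8. At 5 percentage points, 1 member, Mcm2, changed in PAS use in RC8. The other 75 counts and medians stayed. For counts this means within 1.5 times. For medians it means inside the range of the members without their lowest and highest, which is wider than counting error. Of the changes of single members, 176 stayed and 16 moved by more than counting error, 10 of them with median-of-ratios scaling. Mcm4 took the opposite sign with it, at 0.01 in AS and 0.21 in RC4, and no called value did. Scaling to the study's library totals moved no change of a single member beyond counting error, but raised the members lower in RC4 from 5 to 7, and count column 2 alone gave 6. Shares of all genes were computed for the main setting and median-of-ratios scaling only. The counts of the other settings, such as 2-fold, therefore have no share to be set against. Depth limits the distal PAS of Cdc6 in RC4 and genes under 50 reads, which the tables leave out.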
